A study of Sus scrofa with 63 samples.

Results

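Vitamin A handling in the fetal pig jejunum was described by 9 genes, RBP2, RBP4, LRAT, BCO1, STRA6, ALDH1A1, ALDH1A2, RARA and RARB. Their probes were taken as all probes of the array whose gene name in the scanner files equals one of these symbols in any letter case. This gave 12 of the 60305 probes of the array, for 7 of the 9 genes, and no probe carried the name BCO1 or ALDH1A2. Of the 12 probes, 11 entered the tests, with at least 1 for each of the 7 genes. Jejunum RNA of 63 male fetuses of the Large White (LW) and Meishan (MS) breeds and their crosses was measured on one-colour Agilent porcine arrays, 1 fetus per array. Sows of each breed carried litters of mixed sires, so that purebred and crossbred fetuses shared a uterus, and MS piglets are known for better survival at birth. A genotype name gives the sire's breed first and the sow's breed second. The purebred groups were LWLW, with 9 fetuses at day 90 of gestation and 9 at day 110, and MSMS, with 6 and 7. The crossbred groups were MSLW, from an MS sire and an LW sow, with 8 and 6 fetuses, and LWMS, from an LW sire and an MS sow, with 9 and 9. No fetus received a treatment. The tissue was a middle segment of jejunum taken whole, so a lower signal from fewer cells of a type cannot be told apart from less RNA per cell.

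Vitamin A reaches the enterocyte as retinol or as carotene, which BCO1 cleaves. Inside the cell RBP2 holds retinol and LRAT joins it to a fatty acid for storage or export, while RBP4 carries retinol in blood and STRA6 takes it up from RBP4 in other tissues. ALDH1A1 and ALDH1A2 make retinoic acid, the ligand of the nuclear receptors RARA and RARB, whose target genes include RARB itself and the retinoic acid hydroxylase CYP26A1.

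The array sees each gene through short designed oligonucleotides, and 7 of them are shown here as examples of what was hybridised. Each is 60 bases long and is given 5′ to 3′ as in the scanner files. In the RARA and STRA6 probes, capitals mark the bases shared with another probe of the array that does not carry the gene's name.
RBP2 (O13561): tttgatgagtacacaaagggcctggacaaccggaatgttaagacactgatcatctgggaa
RBP4 (A_72_P146486): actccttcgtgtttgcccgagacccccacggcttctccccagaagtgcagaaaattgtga
RBP4 (A_72_P531116): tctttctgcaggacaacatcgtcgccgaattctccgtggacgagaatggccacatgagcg
LRAT (A_72_P405043): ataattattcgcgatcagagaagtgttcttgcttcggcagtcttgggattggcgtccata
ALDH1A1 (A_72_P052071): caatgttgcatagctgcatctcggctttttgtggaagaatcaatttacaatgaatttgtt
STRA6 (O11448): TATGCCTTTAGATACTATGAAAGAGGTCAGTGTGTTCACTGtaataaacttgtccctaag
RARA (O9489): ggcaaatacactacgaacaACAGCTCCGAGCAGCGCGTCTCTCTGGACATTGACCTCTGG
A second RBP2 probe, A_72_P223557, has the same 60 bases as O13561, so the 2 RBP2 probes are repeats of one measurement. The 2 RBP4 probes shown, and 2 more, A_72_P667921 and O11669, are different sequences. GC content was 35% in the ALDH1A1 probe shown and 55% in both RBP4 probes shown. Where a gene had several tested probes, the brightest over the 63 arrays represents it, which is O13561 for RBP2 and A_72_P667921 for RBP4. The printed values of RBP4 thus rest on A_72_P667921, and those of RARB on its single named probe, O11430, neither of which is among the probes shown.

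All levels are log2 signals relative to the 75th percentile of the fetus's own array, and levels of different probes are not compared. Between 51.2% and 87.6% of probes were well above background on an array. Overlap between groups is described for the 7 genes only, and its share over all tested probes is not given here. Changes with age, and the difference between the purebreds, were called where the limma adjusted p did not exceed 0.01 and the log2 difference was 0.5 or more in size, and effects of sow or sire breed at an adjusted p under 0.05. Each probe had a single estimate of spread shared by all 8 groups, so a wide group also widens the SE of comparisons that do not include it. Litter mates could not be matched to a sow from the labels and were treated as independent, which can make p-values too small. A single array stood apart, and leaving it out was not planned but chosen after seeing the data. Fetus 632, an MSMS fetus of day 110, was below all 62 other fetuses for 9 of 11 enterocyte markers and for RBP2, RBP4, LRAT and ALDH1A1, and above the 6 others of its group for 6 of 7 mesenchyme and fibroblast markers. Its lactase (LCT) signal was -1.31, against 3.42 to 5.60 in the 6 others. Results that rest on it are given with and without it.

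Between day 90 and day 110, taking the mean of the 4 genotypes, 4 of the 7 genes changed, where 13.7% of all tested probes did. RBP2 and LRAT rose, and 6.12% of all tested probes were higher. RBP4 and RARB fell, and 7.62% of all tested probes were lower. STRA6, ALDH1A1 and RARA did not pass the test.

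RBP4, the carrier of retinol in plasma, showed the largest change of the 7 genes, a fall of more than 3 on the log2 scale. In LWLW fetuses its signal was 3.0 at the lowest, 3.60 at the median and 4.99 at the highest at day 90, and -1.73, -1.06 and 2.15 at day 110. MSLW fetuses had 2.14, 3.06 and 4.70 at day 90, and -1.93, -0.48 and 1.26 at day 110. Within each of these genotypes every fetus of day 110 was below every fetus of day 90. The signal in LWMS ran from 2.66 over 3.64 to 4.27 at day 90 and from -1.80 over 1.33 to 2.60 at day 110. For MSMS it ran from 2.40 over 3.45 to 4.80 at day 90 and from -2.11 over 0.17 to 2.14 at day 110. Again no fetus of day 110 reached the lowest fetus of day 90 of its genotype, and over all genotypes 28 of the 31 fetuses of day 110 were below all 32 of day 90.

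The mean log2 change of RBP4 was -3.50 (SE 0.29, limma adjusted p = 1.8e-15), an 11.3-fold lower signal. It was -4.11 (SE 0.53, adjusted p = 5.9e-08) in LWLW, where 2 of the 7 genes were called against 4.77% of all probes. The log2 change was -3.43 (SE 0.60, adjusted p = 4.8e-05) in MSLW, where 2 genes were called against 5.41%. In LWMS, with 3 genes called against 9.88% of all probes, it was -3.16 (SE 0.53, adjusted p = 8.4e-06). RBP4 was the only one of the 7 genes called in MSMS, against 3.17% of all probes, with -3.30 (SE 0.62, adjusted p = 2.2e-04), or -2.91 (SE 0.62, adjusted p = 0.0011) without fetus 632. All 4 RBP4 probes passed in all 4 genotypes, with mean changes from -3.63 to -2.87, the smallest at A_72_P146486. Within the 8 slides the difference between the ages ran from -4.59 to -2.78.

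The fetuses spread more widely around their group mean at day 110, with SDs of 1.26 to 1.59, than at day 90, with SDs of 0.55 to 0.92. In the order of group means all 4 groups of day 110 lay below all 4 of day 90. The single gap larger than the SDs beside it was the one between the ages, from 0.47 in LWMS at day 110 to 3.20 in MSLW at day 90. RBP4 did not pass the test for sow breed, with a log2 difference of 0.40 (95% interval -0.17 to 0.97), nor for sire breed, with -0.17 (95% interval -0.74 to 0.41).

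Some genes known from fetal liver and yolk sac moved in the same direction as RBP4, and others did not. Of 6 hepatocyte markers tested, 4 were lower at day 110: alpha-fetoprotein (AFP) by a log2 change of -3.23, the plasma glycoprotein APOH by -3.40, the protease inhibitor SERPINA1 by -1.17 and the fibrinogen chain FGB by -0.83. The FGB probe was well above background on only 13 of 63 arrays, so the size and direction of its change are uncertain. Albumin (ALB), well above background on 30 of 63 arrays, had -0.31 (adjusted p = 0.22), and transthyretin (TTR), the partner of RBP4 in plasma, had 0.69 (adjusted p = 0.015), short of the threshold. The signals of the 6 markers were also summed and the sum put on a log2 scale, a value set mostly by the brightest markers. It had medians of 2.14 to 3.12 in the groups of day 90 and 0.34 to 1.11 in those of day 110. The ranges were 1.35 to 4.10 and -2.26 to 2.94. The part of such cells in the RBP4 result was not tested. The 3 other named genes whose signal followed RBP4 most closely over the 63 fetuses were LECT2 (Pearson r = 0.90), the thyroid hormone receptor THRB (r = 0.88) and the phospholipase PLA1A (r = 0.87). These values are a description over fetuses of both ages, and after the group means were taken out they were 0.74, 0.73 and 0.79.

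RBP2, the retinol-binding protein of the enterocyte, was higher at day 110 on average, with a wide spread between fetuses of that age. MSLW fetuses ranged from 4.79 over a median of 5.22 to 5.86 at day 90, and from 6.28 over 7.24 to 8.21 at day 110. LWMS had 4.91, 5.72 and 6.70 at day 90, and 5.27, 7.40 and 7.73 at day 110. Every MSLW fetus of day 110 was above all those of day 90, and 6 of 9 LWMS fetuses were. LWLW had 5.26, 5.55 and 6.80 at day 90, against 3.72, 6.55 and 7.48 at day 110. MSMS had 5.33, 5.61 and 6.43, against -0.11, 7.11 and 7.84. In both purebreds the older fetuses spread to both sides of the younger ones: 4 of 9 LWLW and 4 of 7 MSMS fetuses of day 110 were above all of day 90, and 2 in each were below all of day 90.

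The mean log2 change of RBP2 was 0.96 (SE 0.30, limma adjusted p = 0.0078), or 1.94-fold. Without fetus 632 it was 1.21 (SE 0.21, adjusted p = 3.4e-06), or 2.31-fold. The change of 1.95 in MSLW (SE 0.63, adjusted p = 0.031) and that of 1.34 in LWMS (SE 0.55, adjusted p = 0.077) passed only once this fetus was left out, with adjusted p = 0.0011 and 0.0075. Fetus 632 is in neither genotype, so the changes kept their size and only the shared spread shrank. The values in LWLW, 0.44 (SE 0.55), and MSMS, 0.10 (SE 0.65), passed neither way, MSMS having 1.1 (SE 0.47, adjusted p = 0.15) without it. The call of the mean change was lost without fetuses 823, 851 and 469 (adjusted p = 0.012), with slide as a block (0.011) and with no filter on dim probes (0.012). It was positive in 7 of 8 slides, from -0.61 to 1.87. SDs were 0.39 to 0.53 in the groups of day 90 and 0.70 to 2.88 in those of day 110, the highest in MSMS, 1.25 without fetus 632. In the order of group means, from 5.28 in MSLW at day 90 to 7.23 in MSLW at day 110, no 2 neighbours differed by more than the larger of their SDs.

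LRAT, which esterifies retinol, rose on average, by a size that depended on the processing. Its probe was dim: it was well above background in 22 of 32 fetuses at day 90 and 27 of 31 at day 110, so the lowest values lie near the floor of the array. MSLW fetuses had -6.10 at the lowest, -4.02 at the median and -3.19 at the highest at day 90, and -2.47, -1.47 and -0.58 at day 110. LWMS fetuses had -6.53, -3.85 and -2.58, and then -3.26, -1.61 and -0.97. The 6 older MSLW fetuses were above all the younger ones, as were 8 of 9 in LWMS. In LWLW the signal was -6.04, -5.63 and -3.06 at day 90 and -5.72, -2.70 and -0.94 at day 110. In MSMS it was -3.44, -2.90 and -1.80 at day 90 and -6.69, -1.25 and -0.46 at day 110. The LWLW groups overlapped, with 5 of 9 older fetuses above all younger ones, and the MSMS groups did too, fetus 632 lying below and 4 of 7 above the whole of day 90.

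The mean log2 change of LRAT was 2.05 (SE 0.31, limma adjusted p = 2.2e-07), a 4.15-fold rise. Over the 12 alternatives of processing and of fetuses left out it ran from 1.27 to 2.27, so its size is uncertain. In MSLW the change was 3.01 (SE 0.65, adjusted p = 9.4e-04), and 1.79 to 3.22 over the alternatives. In LWMS the change was 2.45 (SE 0.57, adjusted p = 0.0012), and 1.35 to 2.63 over the alternatives. LWLW, with 2.08 (SE 0.57, adjusted p = 0.011), stopped just short of the threshold. Without fetus 632, which is not an LWLW fetus, it passed with the same log2 change (SE 0.49, adjusted p = 0.0021). MSMS had 0.67 (SE 0.67, adjusted p = 0.63), and 1.42 (SE 0.60, adjusted p = 0.14) without that fetus. The difference was positive within all 8 slides, from 1.13 to 3.26. The interaction of genotype with age was not called for LRAT (adjusted p = 0.74).

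Between the purebreds at day 90 LRAT did not pass the test. The log2 difference, MSMS minus LWLW, was 2.40 (SE 0.64, limma adjusted p = 0.0102), with 4 of 6 MSMS fetuses above all 9 LWLW fetuses. Its size is uncertain, since all 6 MSMS fetuses but only 4 of the 9 LWLW fetuses were well above background. None of the 7 genes was called in this comparison, against 3.59% of all probes, although LRAT, RARB and RARA had an unadjusted p under 0.05. At day 110 the LRAT difference was 1.0 (SE 0.61, adjusted p = 0.33), and 1.75 (SE 0.55, adjusted p = 0.026) without fetus 632, which did not pass either. MS sows gave 0.80 (SE 0.31, adjusted p = 0.066) and MS sires 0.90 (SE 0.31, adjusted p = 0.065) above their LW counterparts. Without fetus 632 these passed, with 0.99 (adjusted p = 0.0058) for the sow and 1.09 (adjusted p = 0.0049) for the sire. The purebred difference at day 90 does not include this fetus and stayed at 2.40. It passed (adjusted p = 0.0018) because the SE, which rests on the spread shared by all groups, fell to 0.55. In the order of group means, from -5.26 in LWLW at day 90 to -1.44 in MSLW at day 110, no neighbours differed by more than the larger SD.

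**Figure D1:**
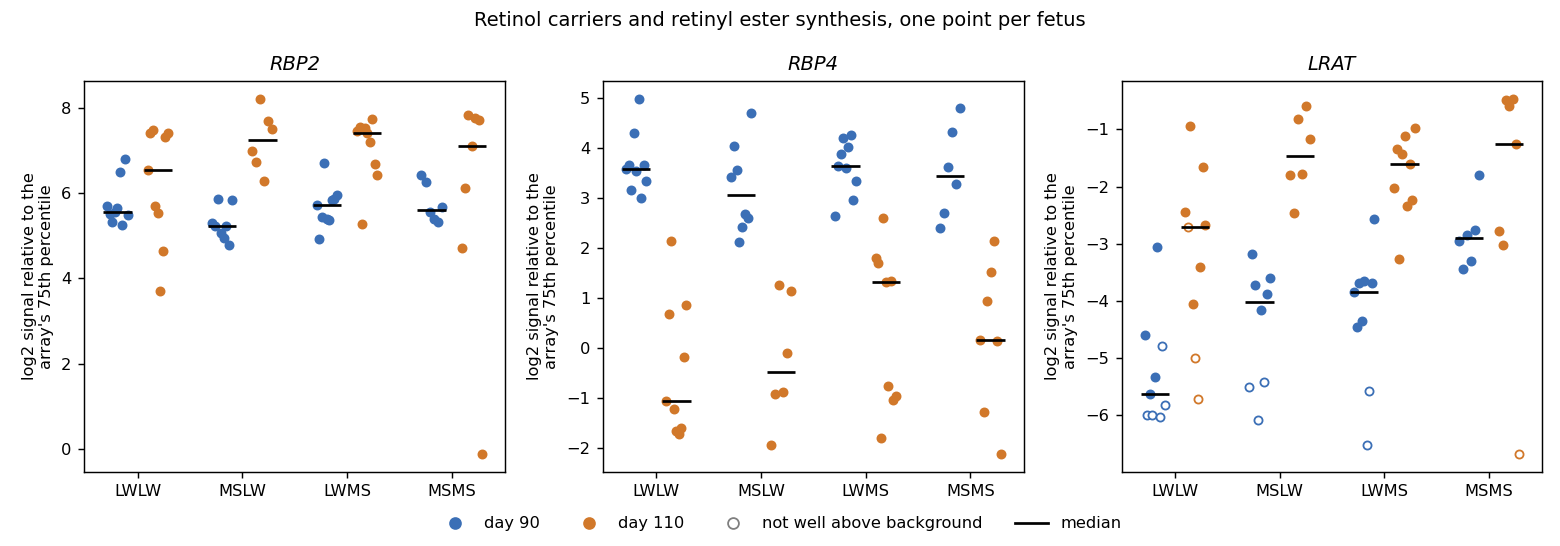
Log2 signal of RBP2, RBP4 and LRAT above or below the array's 75th percentile (vertical axis) in the 4 genotypes, with day 90 in blue and day 110 in orange, 1 point per fetus and a bar at each median. Open points were not well above background. RBP4 separates by age in each genotype, RBP2 spreads widely at day 110, and the lowest RBP2 point, -0.11, is MSMS fetus 632.

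Markers of the enterocyte, the cell in which RBP2 and LRAT act, moved in both directions with age. Of 11 tested, 4 were higher at day 110: the fatty acid binding protein FABP1 (log2 change 2.55), intestinal alkaline phosphatase ALPI (2.47), sucrase-isomaltase SI (1.67) and lactase LCT (1.37). The SI probe was well above background on only 24 of 63 arrays, so the size and direction of its change are uncertain. Lower were aminopeptidase N, ANPEP (-0.59), and apolipoprotein APOB (-0.99). The log2 of the summed signals of the 11 markers, set mostly by the brightest, had medians of 9.77 to 10.08 in the groups of day 90. In those of day 110 the medians were 10.099 to 10.8. The ranges were 9.16 to 10.5 and 7.26 to 11.4, the lowest being fetus 632. Of the 7 mesenchyme and fibroblast markers COL1A1 (-0.81) and COL1A2 (-0.74) were lower. The part of the epithelial share in the RBP2 and LRAT results was not tested. Over the 63 fetuses the named genes closest to RBP2 were apolipoprotein APOA1 (r = 0.94), the cystine transporter SLC7A9 (r = 0.93) and BBOX1 of carnitine synthesis (r = 0.92). Those closest to LRAT were the glucose transporter SLC5A1 (r = 0.89), SLC5A4 (r = 0.89) and SEC14L2, a tocopherol-binding protein (r = 0.89). After the group means were taken out the values were 0.94, 0.92 and 0.93 for RBP2, and 0.80, 0.78 and 0.73 for LRAT.

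BCO1, which splits beta-carotene into retinal, is on the array under its older symbol BCMO1. Its 2 probes have the same sequence and were too dim to be tested. A_72_P152416 was well above background in 1 of 32 fetuses at day 90 and in 13 of 31 at day 110, and O9295 in 1 and 11. Such signals were found in every genotype at day 110, in 2 to 4 fetuses of each group. In MSMS at day 110 the 2 probes differed, with 4 of 7 fetuses by A_72_P152416 and 2 by O9295. The signals were near the floor of the array. Over all genotypes they were seen in a minority of older fetuses and in 1 younger one, of LWMS.

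STRA6, the receptor for the retinol carried by RBP4, could not be given a settled level, because its probes differed. The probe named STRA6, O11448, to which all values given for STRA6 belong, was near the detection limit. It was well above background in 15 of 32 fetuses at day 90 and 10 of 31 at day 110, and it entered the tests through MSMS at day 90, where all 6 fetuses had a signal, of -4.98 to -4.38. Group medians ran from -5.27 to -4.62 at day 90 and from -5.72 to -4.95 at day 110, and the ages overlapped in every genotype. The mean log2 change was -0.52 (SE 0.18, limma adjusted p = 0.017), did not pass the test, and was 0.0028 after another background correction (normexp). Since the probe was tested only because of a group of day 90, which was also its highest, no direction with age can be read from it. Another probe, A_72_P102201, whose accession RefSeq pairs with STRA6, was well above background on 62 of 63 arrays and had a log2 change of 0.32 (SE 0.09, adjusted p = 0.0045), opposite in sign and under the minimum size. Which of the probes measures STRA6 was not tested.

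ALDH1A1, which oxidises retinal to retinoic acid, did not pass the test for age. The mean log2 difference was 0.24 (SE 0.17, 95% interval -0.10 to 0.58, limma adjusted p = 0.27), and 0.37 (SE 0.13, adjusted p = 0.017) without fetus 632, the lowest of all 63. The groups of day 90 were tight, with SDs of 0.13 to 0.33, and those of day 110 were wide, with SDs of 0.51 to 1.63, the highest being that of MSMS, which was 0.96 without this fetus. LWLW fetuses had 2.34 at the lowest, 2.46 at the median and 2.75 at the highest at day 90, and 2.11, 3.14 and 3.73 at day 110. MSMS fetuses had 1.66, 1.90 and 2.32, and then -0.97, 2.10 and 4.06. At day 90 all 6 MSMS fetuses were below all 9 LWLW fetuses. That log2 difference was -0.54 (SE 0.35, adjusted p = 0.45), where the SE also holds the wide spread of day 110. At day 110 the difference was -0.81 (SE 0.33, adjusted p = 0.12). Without fetus 632 the difference at day 110 was -0.29 (SE 0.26, adjusted p = 0.51). By sire breed it was -0.44 (95% interval -0.78 to -0.10, adjusted p = 0.11), lower with MS sires in 7 of 8 slides, and -0.31 (adjusted p = 0.15) without that fetus. The other ALDH1A1 probe, O9202, was well above background in 3 of 32 fetuses at day 90 and 17 of 31 at day 110 and was not tested.

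RARA, a receptor for retinoic acid, passed none of the tests. Group medians lay between -3.14 and -2.60, and the mean log2 change with age was 0.06 (SE 0.11, 95% interval -0.17 to 0.28, limma adjusted p = 0.74). The test of any difference between the 8 groups gave an adjusted p of 0.49. RARA had 1 outlier spot left out, in MSLW at day 110, which leaves 5 values there. By that test 3 of the 7 genes differed between groups, RBP4, LRAT and RARB, against 28.8% of all probes.

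RARB, a receptor whose own gene responds to retinoic acid, was the one gene of the 7 that passed for both age and breed. Its group median was lowest in LWLW at both ages. At day 90, LWLW fetuses had -1.16 at the lowest, -0.33 at the median and -0.05 at the highest, and MSMS fetuses had -0.19, 0.11 and 1.1. The crossbred fetuses had -0.34, -0.07 and 0.42 in MSLW and -0.53, -0.11 and 0.55 in LWMS. Both crossbred medians were thus between those of the purebreds, and 4 of 6 MSMS fetuses were above all LWLW fetuses. At day 110 LWLW had -1.83, -1.27 and -0.44, and MSMS had -0.42, -0.21 and 0.32. MSLW had -1.28, -0.71 and -0.04, and LWMS had -1.30, -0.71 and -0.23. All 7 MSMS fetuses were above all 9 LWLW fetuses, with the crossbred medians again between.

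At day 110 the RARB signal of MSMS exceeded that of LWLW by 1.16 (SE 0.18, limma adjusted p = 6.7e-06), or 2.23-fold. It was the 1 gene of 7 called there, against 5.01% of all probes, and 1.84% of probes were called higher in MSMS. At day 90 the log2 difference was 0.71 (SE 0.19, adjusted p = 0.013), short of the threshold. Fetuses of MS sows exceeded those of LW sows by 0.46 (SE 0.09, adjusted p = 3.0e-04), where 15.9% of all probes were called and 7.07% higher. Fetuses of MS sires exceeded those of LW sires by 0.48 (SE 0.09, adjusted p = 3.1e-04), where 6.97% were called and 3.1% higher. RARB was the 1 gene called in each. The sow difference was positive in 7 of 8 slides, from -0.28 to 0.96, and the sire difference in all 8, from 0.19 to 0.85. Without fetus 632 the values were 0.44 for the sow and 0.46 for the sire (adjusted p = 4.5e-04 and 5.2e-04), and 1.1 (SE 0.19, adjusted p = 3.7e-05) for the purebreds at day 110.

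With age RARB fell by 0.58 on the log2 scale (SE 0.09, limma adjusted p = 1.1e-06), to a 1.49-fold lower signal. In LWLW it fell by 0.74 (SE 0.17, adjusted p = 0.0022) and in LWMS by 0.61 (SE 0.17, adjusted p = 0.0085). MSLW had -0.67 (SE 0.20, adjusted p = 0.017) and MSMS -0.29 (SE 0.20, adjusted p = 0.44). The fall in LWMS lost its call under 6 alternatives, and that in LWLW did so without fetuses 484 and 469 and with median centring. Within slides the difference between the ages was negative in all 8, from -1.11 to -0.27. In the order of group means only 2 neighbouring steps exceeded the larger SD, from LWLW at day 110 (-1.21) to MSLW at day 110 (-0.72), and from LWLW at day 90 (-0.47) to LWMS at day 90 (-0.10). A probe that carries a sequence accession as its name, A_72_P086806, shares 58 bases with the RARB probe and is largely the same measurement. It gave a change with age of -0.58 and a difference of 1.20 between MSMS and LWLW at day 110. Its difference at day 90, 0.75, passed the test (adjusted p = 0.0077). The named genes closest to RARB over the 63 fetuses were PLCL2 (r = 0.79), TRAF7 (r = 0.77) and the cholesteryl ester hydrolase NCEH1 (r = 0.76). After the group means were taken out these were 0.52, 0.67 and 0.67, so that the order of the 3 changed.

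No enterocyte marker was called for sow breed, sire breed or MSMS against LWLW at day 110, the comparisons in which RARB differed. Some markers of other cells were. Of all tested probes, 15.9% were called for sow breed, 6.97% for sire breed and 5.01% for the purebreds at day 110. The endothelial receptor KDR, 1 of 5 endothelial markers, was lower by log2 differences of -0.52 with MS sows, -0.47 with MS sires and -1.06 in MSMS at day 110 (limma adjusted p = 0.0057, 0.021 and 0.0052). The glial protein S100B, 1 of 5 markers of enteric neurons and glia, was higher in the same comparisons by 0.44, 0.32 and 0.81 (adjusted p = 3.8e-04, 0.020 and 0.0012). The macrophage receptor CD163, 1 of 6 immune markers, was higher with MS sows by 0.48 and in MSMS at day 110 by 1.04. Called in 1 of the 3 comparisons were AFP, higher with MS sows by 1.08, LGR5, lower with MS sows by 0.46, FGB, higher with MS sires by 0.87, TEK, lower with MS sires by 0.28, and LUM, lower with MS sires by 0.36. At day 110 the log2 of the summed signals of the 5 neuron and glia markers, S100B among them, ran from 2.48 to 3.23 in LWLW. In MSMS it ran from 3.19 to 3.82. That of the 5 endothelial markers ran from 3.18 to 4.10 in LWLW and from 2.77 to 4.19 in MSMS. Both values are set mostly by the brightest markers. The part of these cells in the RARB result was not tested.

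None of the 7 genes passed for an interaction of age with sow breed, with sire breed or with genotype, where 0.388%, 0% and 0.0938% of all probes were called with limma, and none had an unadjusted p under 0.05 in any of the 3.

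**Figure D2:**
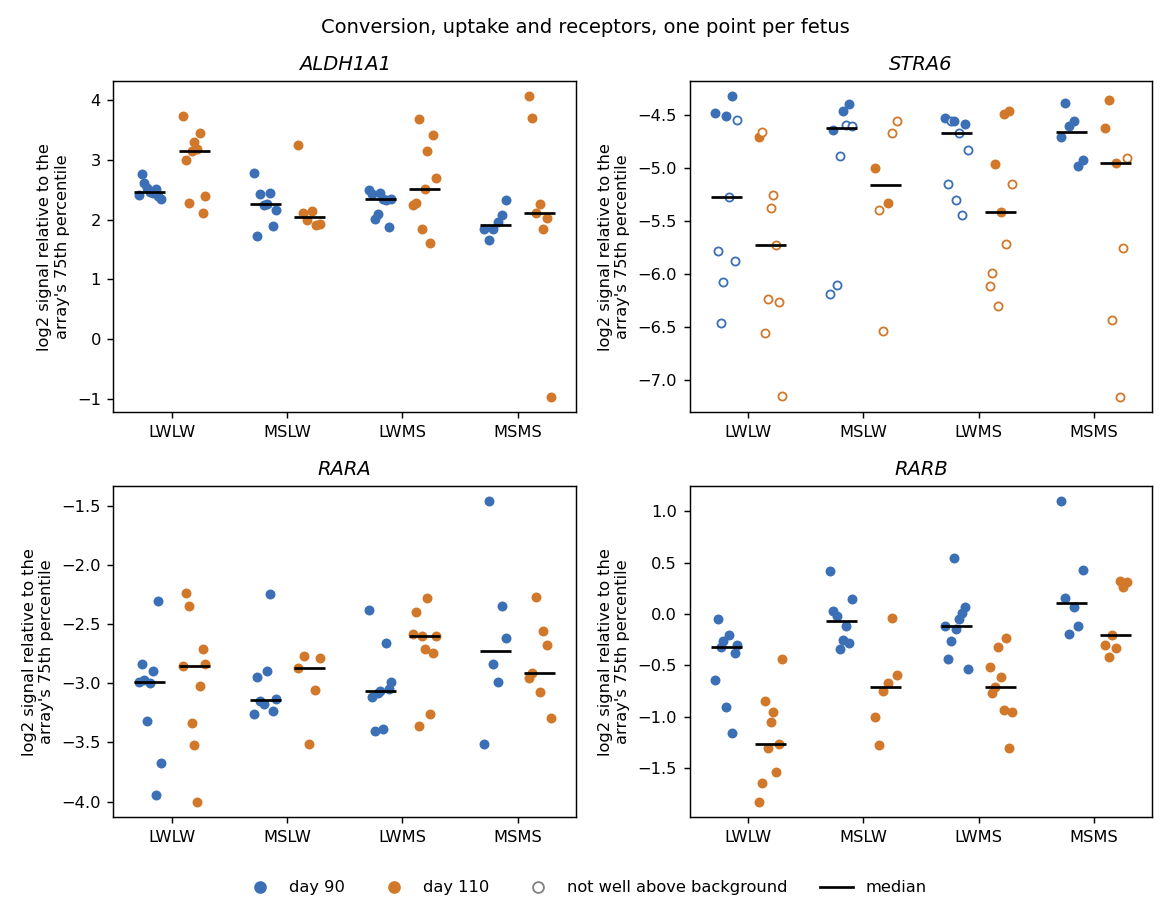
Log2 signal of ALDH1A1, STRA6, RARA and RARB above or below the array's 75th percentile (vertical axis), by genotype and age as 1 point per fetus with a bar at the median, open where not well above background. The RARB median was lowest in LWLW at both ages, and most STRA6 points are open.

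**Figure D3:**
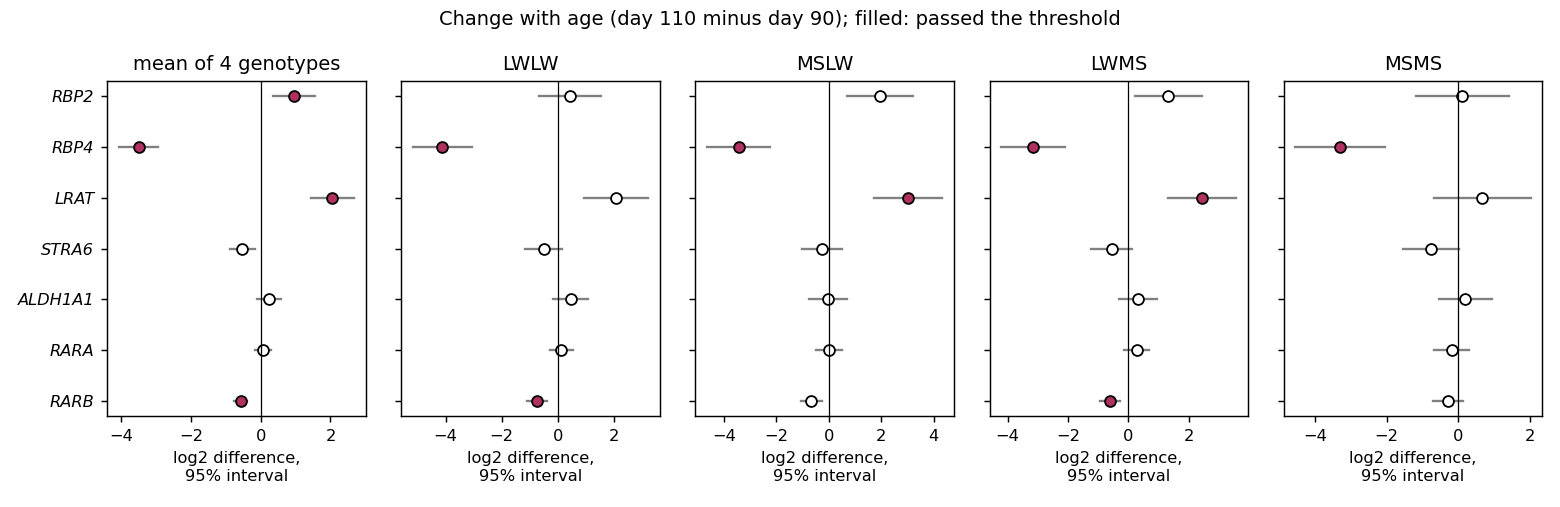
Log2 difference between day 110 and day 90 (horizontal axis, with its 95% interval) for the 7 genes, as the mean of the genotypes and in each genotype, with filled points for those that passed the test. RBP4 passed in all 5 panels, and the horizontal scales differ between panels.

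**Figure D4:**
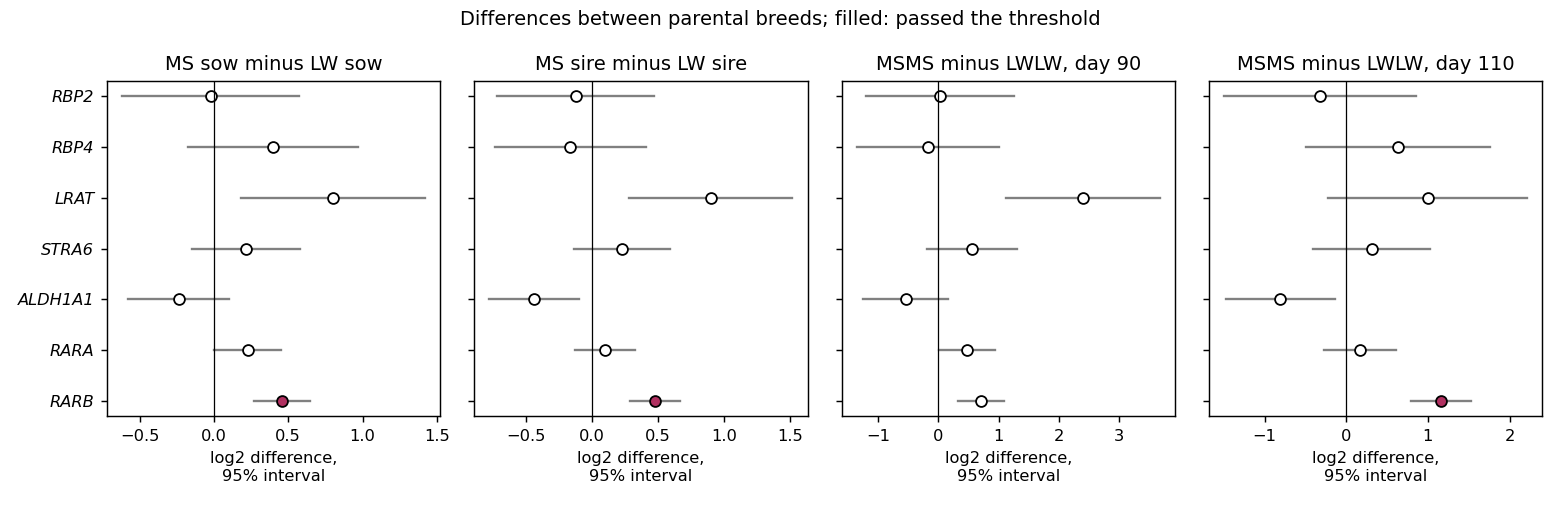
Log2 differences between sow breeds, sire breeds and the 2 purebreds at each age (horizontal axis, with 95% intervals) for the 7 genes, filled where the test was passed. RARB is the filled point in 3 of the 4 panels, and no gene is filled for the purebreds at day 90.

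The other genes of the pathway were taken as a list of 61 in 5 groups, of which 44 had a probe by name and 39 were tested. With age, 3 of the 39 rose and 5 fell, where 13.7% of all tested probes were called (6.12% higher and 7.62% lower), with a median log2 change of 0.0082 against -0.020 over all tested probes. Among 9 genes of uptake, binding and transport, the retinoic acid binding proteins CRABP2 and CRABP1 fell, by 1.51 and 0.67 on the log2 scale, and RBP5, a cellular retinol-binding protein, fell by 1.42. Lipoprotein lipase, LPL, rose by 0.72 (SE 0.13, limma adjusted p = 4.7e-06). Of 15 genes of conversion, the retinaldehyde reductase DHRS3 fell by 0.79 (SE 0.10, adjusted p = 4.7e-09). ALDH1A3, which makes retinoic acid as ALDH1A1 does, rose by 0.68 (SE 0.14, adjusted p = 6.0e-05), and the retinol dehydrogenase DHRS9 by 0.78 (SE 0.18, adjusted p = 3.5e-04). CYP26A1, which breaks retinoic acid down and was the 1 tested gene of 3 in its group, fell by 1.57 (SE 0.22, adjusted p = 3.0e-08), or 2.97-fold. The CYP26A1 probe was well above background on only 21 of 63 arrays, the CRABP2 probe on 17 and the DHRS9 probe on 29. The size and direction of the changes of these genes are therefore uncertain. None of the 10 receptors and co-regulators passed, and none of the 4 targets and regulators tested did.

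By genotype the counts of these genes were smaller. Of the 39, 2 rose and 2 fell in LWLW, where 4.77% of all probes were called, and none passed in MSLW, against 5.41%. In LWMS 1 rose and 2 fell, against 9.88%, and in MSMS 1 rose and 1 fell, against 3.17%. LPL was the gene that rose in LWMS and MSMS, and CYP26A1 was called in LWMS, by -2.34 (SE 0.40, limma adjusted p = 1.4e-05). For sow breed 11 of the 39 were called, 10 of them higher with MS sows, where 15.9% of all probes were called and 7.07% were higher, with a median log2 difference of 0.062 over the list and 0.019 over all tested probes. DHRS9 was higher by 0.85 (SE 0.18, adjusted p = 4.6e-04), RETSAT, which saturates retinol, by 0.37 (SE 0.07, adjusted p = 2.0e-04), and TNIP1 by 0.24. ISX, the homeobox factor that represses BCO1 and SCARB1, was higher by 0.34 (adjusted p = 0.0499), and SCARB1, a receptor in carotenoid uptake, by 0.32. The others were CES1, DHRS4, LPL, PPARD and RXRB, and RBP7 was lower by 0.31. For sire breed 3 were called, against 6.97% of all probes, all higher with MS sires: ISX by 0.51, DHRS9 by 0.56 and ADH4 by 0.46. ISX was the 1 gene of the list called between the purebreds at day 90, where 3.59% of all probes were, and was higher in MSMS by 1.03 (SE 0.25, adjusted p = 0.0053). DHRS9, by 1.78, and RETSAT, by 0.60, were those called at day 110, against 5.01% of all probes. Because their probes were dim, the CYP26A1 and DHRS9 values given here are uncertain in size and direction as well.

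**Figure D5:**
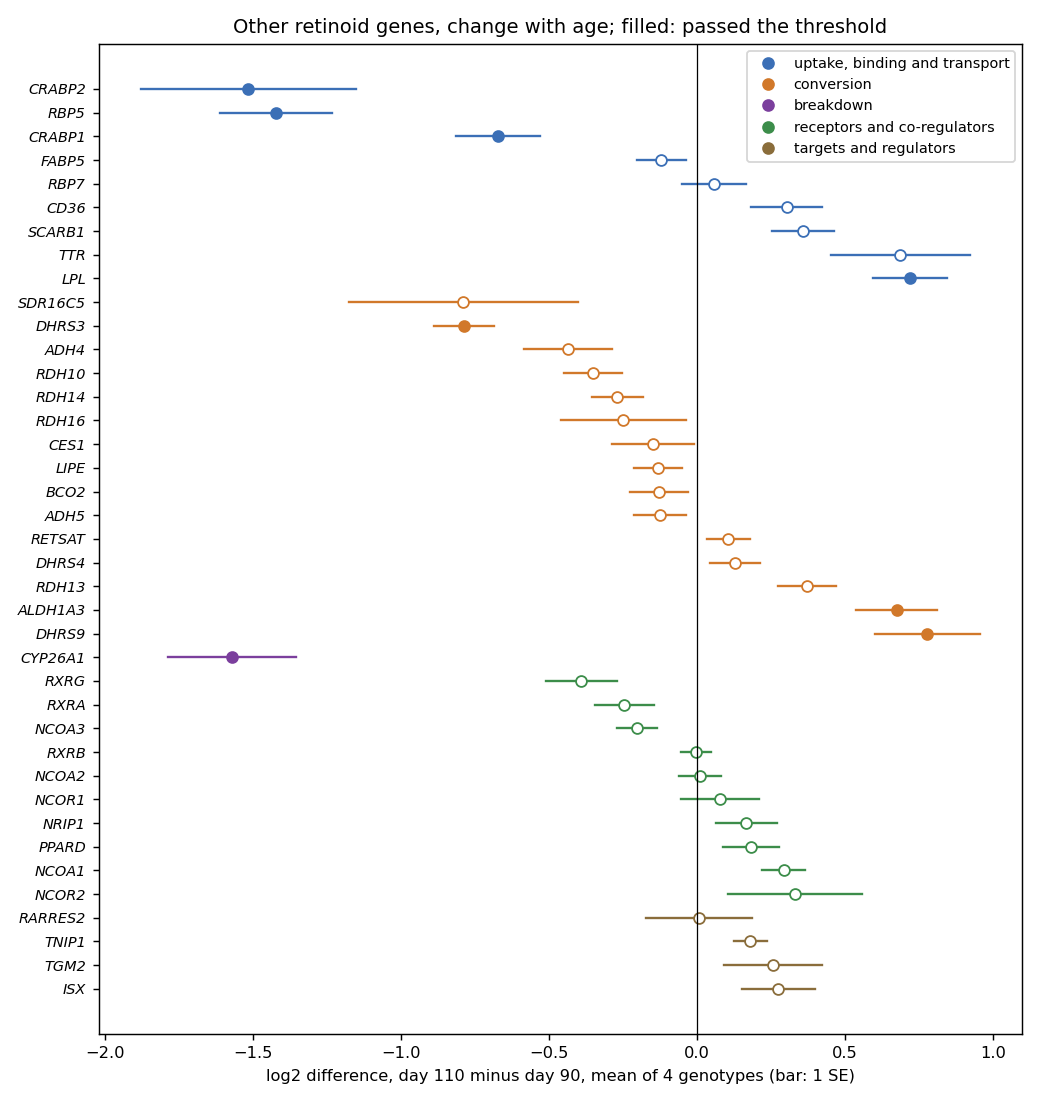
Log2 change between day 90 and day 110 (horizontal axis, mean of the 4 genotypes, bar of 1 SE) of the 39 tested genes of the pathway, grouped by role and ordered by size, with filled points for the 8 that passed the test. CYP26A1, CRABP2 and RBP5 lie farthest to the left, from -1.57 to -1.42. The probes of CYP26A1, CRABP2 and DHRS9 were dim, so the size and direction of their changes are uncertain.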

How the data were processed

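Jejunum RNA of 63 fetuses was labelled with 1 dye and hybridised singly to Agilent arrays on 8 slides. The authors deposited Agilent Feature Extraction 10.10.1.1 output with linear spot intensity, as well as log2 values of 39446 probes in 1 matrix, whose selection is not given in the sources used here. By comparison with the scanner files these are quantile-normalized log2 median signals (96.0% of values within 0.1), with column medians of 8.61. Here each processed (background-corrected) intensity was put on a log2 scale and centred on its array's 75th percentile, leaving out control and outlier spots. Background subtraction makes values near the floor uncertain. A probe was tested if 75% or more of the arrays in some group measured it well above background (40515 of 60305 probes). Group means were fitted with limma 3.58.1 in R 4.3.3, with Benjamini-Hochberg adjustment over all tested probes, two-sided. Figures used matplotlib. The number of arrays per group limits the precision. No 2 arrays held identical values.

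The genes, the pathway list, the markers and the tests were chosen with earlier results of these data known. 1 gene of the pathway list is not reported here. Genes of the list are named where called, and the 3 genes most like a member by Pearson correlation over named probes. Probes sharing at least 30 bases with a member's probe, or whose accession RefSeq (Sscrofa11.1) pairs with a member, were listed apart. Slide, normalization, background correction, filters, array weights, probe averaging and the omission of fetuses were varied. Steps were tested on simulated data. A random sow effect, part of the original model, was not fitted.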

Additional observations from a re-analysis of the deposited data

Results flagged for a closer look

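Of 56 sets of values, 1 for each of the 7 genes in each of the 8 groups, 5 held a fetus whose gap to its nearest neighbour was large for the range of the group (Dixon's criterion). Chance gives about 1 such set in 20. MSMS fetus 632 at day 110 had the lowest RBP2, at -0.11 against 4.71 in the next fetus, and the lowest LRAT, at -6.69 against -3.02. LWLW fetus 462 at day 90 had the highest LRAT of its group, -3.06, with the next at -4.61. MSLW fetus 560 at day 110 had the highest ALDH1A1, 3.24, with the next at 2.15. MSLW fetus 900 at day 90 had the highest RARA, -2.24, with the next at -2.90.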

How the results depend on the processing

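The change of RBP4 with age in each genotype, of LRAT on average, in MSLW and in LWMS, and the RARB differences by sow, by sire and between MSMS and LWLW at day 110 kept their direction and their call under all 12 alternatives. The count of called genes among the 7 between MSMS and LWLW at day 90, 0, was 1 with the authors' processed values, normexp background correction, array weights, a filter that requires all arrays of a group, and without fetus 632. The count for LWLW with age, 2, was 1 with median centring and without fetuses 484 and 469. It rose without fetus 632, where LRAT was called as well, and the counts for MSLW and LWMS rose there by RBP2. Not every smaller shift of a count is listed. The count for sow breed, 1, was 2 with median centring and without fetus 632, and that for sire breed, 1, was 2 without fetus 632. With array weights the counts were 2 for MSMS with age, 3 for the purebreds at day 110, 4 for the sow, 3 for the sire and 6 for any difference between groups. The cause was not tested. With these weights the mean change of RARB with age was -0.47, under the minimum size.

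Signs turned for values that had not passed. For RBP2 the purebred difference at day 90 was -0.080 with the authors' values, -0.066 with quantile normalization, -0.014 with median centring, -0.029 with slide as a block and -0.061 with array weights. At day 110 it was 1.21 with array weights and 0.68 without fetus 632. Its sow difference was 0.086 with median centring, 0.090 with slide as a block, 0.38 with array weights, 0.048 without fetuses 484 and 469 and 0.23 without fetus 632, and its sire difference was 0.19 with array weights and 0.12 without fetus 632. STRA6 with normexp had changes of 0.0028 on average, 0.18 in LWLW and 0.042 in MSLW. With array weights the STRA6 sow difference was -0.020, ALDH1A1 in MSLW 0.11, RARA in MSLW -0.0040, and RBP4 0.057 for the sire and 0.15 for the purebreds at day 90.

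The alternatives without fetus 632 and without fetuses 823, 851 and 469, whose shares of probes well above background were extreme, were chosen after seeing the data. LRAT and STRA6 are limited by signal over background. No paired analysis was possible because fetus numbers are unique and the groups share none.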

Other observations

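Other probes of the array are related to these genes by shared bases or by accession, without carrying their names. Whether they measure these genes was not tested. A_72_P102201 and A_72_P118516 stand for an accession that RefSeq pairs with STRA6. A_72_P118516 shares 41 bases with the STRA6 probe and was well above background on 14 of 63 arrays, too few for a test. A_72_P102201 did not pass between the purebreds, with log2 differences, MSMS minus LWLW, of 0.16 at day 90 and 0.011 at day 110 (limma adjusted p = 0.75 and 0.98). A_72_P117606 shares 41 bases with the RARA probe and had a change with age of 0.26 (SE 0.09, adjusted p = 0.018), which did not pass.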
